A study of Mus musculus with 3 samples.

Results

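Collagens are the triple-helical proteins that form most of the extracellular matrix of the heart, and the genes described here encode their chains. The members are the probe sets whose mouse gene symbol is Col, a number, the letter a and a number. All 44 such genes of RefSeq's mouse gene table had a probe set, out of 25206 on the array. Of the 44, 11 encode fibrillar chains, 6 the type IV chains of basement membranes, 9 the fibril-associated chains with interrupted helices (FACIT) and 18 other chains.

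Left ventricles of male C57BL/6N mice, 8 to 12 weeks old, were taken at day 14 and measured on 3 arrays, 1 per group. Control mice carried an osmotic pump with vehicle and were injected with saline. Iso mice carried the vehicle pump and received isoproterenol, a beta-adrenergic agonist that injures the heart, intraperitoneally at 50 mg/kg per day for 11 days. Iso+Insl6 mice received the same isoproterenol, and their pump infused INSL6, an insulin-like peptide related to relaxin, subcutaneously at a dose of 50 to 70 nmol/kg per day. RNA of 3 samples was pooled for each array, so the spread between animals was not measured and no difference below has an error or a test.

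Fibrillar collagens, chiefly types I and III, are secreted by fibroblasts as procollagen, trimmed outside the cell, packed into fibrils and crosslinked. They carry the tension of the ventricle wall, and their build-up is the hallmark of cardiac fibrosis. Type IV collagen instead forms the sheet-like network of the basement membrane around each cardiomyocyte and capillary, while FACIT chains sit on the surface of fibrils.

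Values are log2 levels as deposited, so a difference of 1 is a 2-fold difference. The median of all values, 4.16, served as the background level, and each array had that same median. A gene was counted in a comparison when the higher of its values reached 4.16, and called when it differed at least 1.5-fold (0.58 on the log2 scale). Levels of different genes come from different probes and are not ranked against each other. Identical values on several arrays are common in this table: 51.3% of all probe sets, and 42.6% of the 12914 that reached background on any array, had 1 value on all 3 arrays. Equal values therefore do not show that the RNA was equal. Of the cardiomyocyte markers 10 of 10 were above background, but so were 10 of 10 fibroblast, endothelial and hepatocyte markers. This count therefore does not check the tissue label. Mean levels of the cardiomyocyte markers were 11.53 on Control, 11.54 on Iso and 11.52 on Iso+Insl6. Where 3 values follow a gene's name below, they are in that order.

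Of the 44 collagen chains, 26 reached background on any array and 25 on all 3. Of these 26, 18 differed between arrays and 8 had the same value on all of them. The other 18 chains stayed below background throughout. The plot of levels by class shows these 26 chains.

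**Figure D1:**
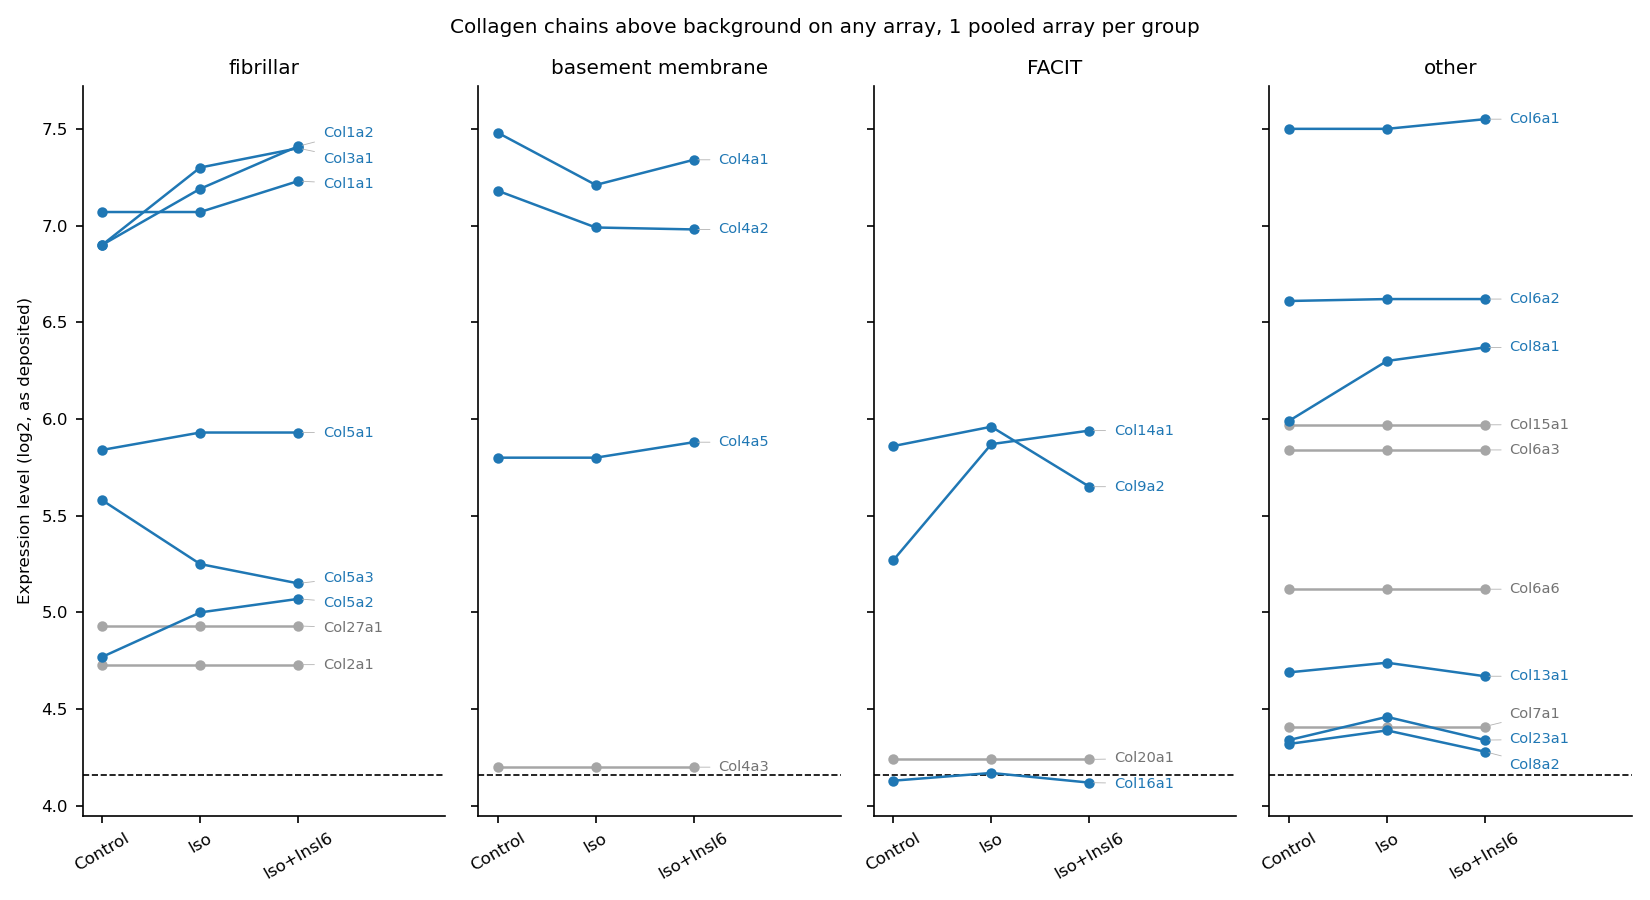
Log2 level (y axis) of the 26 collagen chains at or above background on any array, for the Control, Iso and Iso+Insl6 arrays (x axis), by class; each point is 1 pooled array, the dashed line is the background of 4.16, and grey lines have 1 value on all 3 arrays. Col14a1 stands lowest on Control (5.27 against 5.87 and 5.94), while Col5a3, Col4a1 and Col4a2 stand highest there.

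Iso was first set against Control, the comparison the design gives for the effect of isoproterenol on normal heart. Of the 26 chains counted, 12 were higher on the Iso array, 3 were lower and 11 had the same value, with a median difference of 0.00. Over all 12813 genes above background the median was also 0.00, with 19.9% higher and 27.2% lower. At 1.5-fold 1 chain was higher, Col14a1, and 0 were lower, where 0.874% and 1.06% of all genes were called. Past a smaller difference of 0.32 on the log2 scale, Col14a1 and Col3a1 were higher and Col5a3 was lower, where 3.11% and 3.4% of all genes passed.

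The other comparison of the design sets Iso+Insl6 against Iso, for the effect of INSL6 on hearts given isoproterenol. On the Iso+Insl6 array 9 of 26 chains were higher, 7 were lower and 10 were equal, and the median was 0.00, as over all 12854 genes. Of those genes, 27.9% were higher and 18.1% lower. No collagen chain differed 1.5-fold, or by 0.32, in either direction. Of all genes, 1.46% were called higher and 0.537% lower at 1.5-fold, and 3.3% and 2.09% past 0.32. Between Iso+Insl6 and Control, 10 of 25 chains were higher, 6 lower and 9 the same, where 23.1% of all genes were higher and 23.2% lower. Col14a1 alone was called at 1.5-fold. There the background was 1.95% higher and 0.78% lower. Past 0.32 were Col14a1, Col1a2, Col3a1 and Col8a1 upward, 4 chains in all, and Col5a3 downward, where 4.12% and 2.84% of all genes passed. The 3 comparisons share arrays, so their values for 1 chain are not independent.

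The Iso+Insl6 array stood apart in its hepatocyte markers. All 10 hepatocyte markers measured there, among them Alb (11.12 against 8.97 on Iso), were at least 1.5-fold above Iso, where 1.46% of all genes were. Their mean level was 6.5 on Control, 6.28 on Iso and 8.68 on Iso+Insl6. The part of the hepatocyte signal in the values of any collagen chain was not tested. Hepatocyte markers also differed between Iso and Control, in the other direction: 6 of 10 were lower on Iso, 2 higher and 2 equal. Of all genes, 27.2% were lower and 19.9% higher. The median of the markers was -0.155. Gc (5.79 and 5.07) and Fgb (6.69 and 5.98) were the 2 called lower there, beside 1.06% of all genes.

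**Figure D2:**
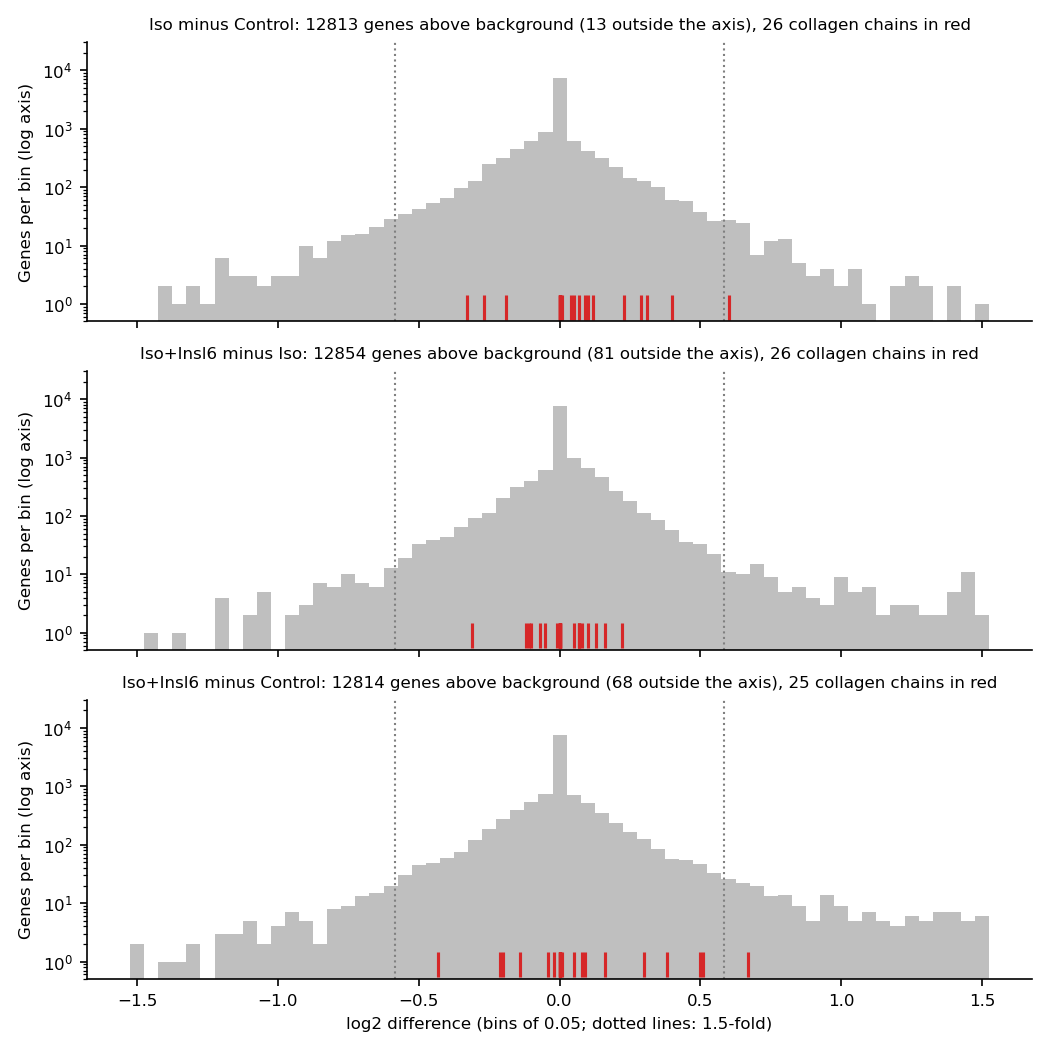
Number of genes (y axis, log scale) by log2 difference (x axis, bins of 0.05) for genes above background in each comparison, with collagen chains as red marks and 1.5-fold as dotted lines. Most chains lie at or near 0, and Col14a1 passes the dotted line in the top and bottom panels, at 0.60 and 0.67.

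Among the major fibrillar chains, Col3a1 and Col1a2 stood lowest on Control and highest on Iso+Insl6. Col3a1 (Entrez gene 12825), the only chain of type III collagen, stood at 6.90 on Control, 7.30 on Iso and 7.40 on Iso+Insl6. It was 1.32-fold higher on Iso than on Control, and 2.15% of genes above background lay at least as far up. From Iso to Iso+Insl6 it differed by 0.10, and 14% of genes lay at least that far up.

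Col1a2 (Entrez gene 12843), which pairs with Col1a1 in type I collagen, stood at 6.90 on Control, 7.19 on Iso and 7.41 on Iso+Insl6. It was 1.22-fold higher on Iso than on Control and 1.16-fold higher on Iso+Insl6 than on Iso. The latter, 0.22 on the log2 scale, was the largest upward difference of any collagen chain in that comparison. Col1a1 (Entrez gene 12842) stood at 7.07 on both Control and Iso and at 7.23 on Iso+Insl6. In the first comparison the listed differences of the chains that share a type I molecule were 0.29 for Col1a2 and 0.00 for Col1a1. The 0.00 comes from equal values, which do not show that Col1a1 RNA was equal.

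Type V collagen starts and limits the width of type I fibrils, and none of its 3 chains was called. Col5a2 stood at 4.77 on Control, 5.0 on Iso and 5.07 on Iso+Insl6, higher by 0.23 and then by 0.07. Col5a1 stood at 5.84, 5.93 and 5.93, a difference of 0.09. Col5a3, a chain of more restricted expression, differed the other way and stood at 5.58, 5.25 and 5.15, and was lower by 0.33 on Iso than on Control. Its level on Iso+Insl6 was 1.35-fold below Control, the largest downward difference of any chain in that comparison, and 1.79% of genes above background lay at least as far down.

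The remaining fibrillar chains showed no difference. Col2a1, the main collagen of cartilage, was listed at 4.73 and Col27a1 at 4.93 on all arrays. Col11a1 (2.98), Col11a2 (4.08) and Col24a1 (3.87) lay below background. Over the 8 fibrillar chains above background the median difference was 0.045 for Iso against Control, 0.035 for Iso+Insl6 against Iso and 0.125 for Iso+Insl6 against Control, beside 0.00 over all genes in each.

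RefSeq's table of promoters (build GRCm38.p6) held a window for 35 of the 44 genes, and none for Col1a1, Col2a1, Col4a3, Col5a2, Col9a3, Col12a1, Col14a1, Col22a1 and Col26a1. The 250 bases before the start site are printed for members with the larger differences that have a window, 3 that were higher on Iso (Col1a2, Col3a1 and Col8a1) and Col5a3, which was lower. Capitals mark the searched motifs, each on both strands: CCAAT (the CCAAT box, read ATTGG on the other strand), GGGCGG (the GC box, read CCGCCC) and TATAAA (the TATA box). The windows are chr6:4505368-4505617 (plus strand), chr1:45311288-45311537 (plus), chr16:57754738-57754987 (minus) and chr9:20815068-20815317 (minus).
Col1a2: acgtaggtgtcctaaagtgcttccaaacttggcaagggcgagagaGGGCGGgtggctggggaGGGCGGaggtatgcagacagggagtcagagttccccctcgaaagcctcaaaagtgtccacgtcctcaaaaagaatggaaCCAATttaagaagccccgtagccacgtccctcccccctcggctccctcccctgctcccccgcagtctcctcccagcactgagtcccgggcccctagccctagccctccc
Col3a1: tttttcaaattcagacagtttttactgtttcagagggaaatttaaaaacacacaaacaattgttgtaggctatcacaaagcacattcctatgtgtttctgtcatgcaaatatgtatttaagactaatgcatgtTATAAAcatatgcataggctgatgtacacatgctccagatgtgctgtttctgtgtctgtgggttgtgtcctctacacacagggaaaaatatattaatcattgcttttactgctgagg
Col8a1: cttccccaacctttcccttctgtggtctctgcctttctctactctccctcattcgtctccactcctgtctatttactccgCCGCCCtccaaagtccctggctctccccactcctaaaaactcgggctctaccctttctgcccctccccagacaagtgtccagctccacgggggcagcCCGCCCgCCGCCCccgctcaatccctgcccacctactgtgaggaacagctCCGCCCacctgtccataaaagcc
Col5a3: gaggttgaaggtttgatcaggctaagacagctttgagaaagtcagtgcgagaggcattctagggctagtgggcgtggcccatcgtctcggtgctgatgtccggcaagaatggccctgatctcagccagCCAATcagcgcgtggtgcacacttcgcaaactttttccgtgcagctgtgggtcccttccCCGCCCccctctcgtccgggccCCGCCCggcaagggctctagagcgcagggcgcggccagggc
The Col1a2 window holds 1 CCAAT box, 109 bases before the start, and 2 GC boxes. The Col3a1 window holds neither, and its only match is a TATAAA 117 bases before the start. Col8a1 has 4 GC boxes and no CCAAT box, and Col5a3 has 1 CCAAT box and 2 GC boxes. No motif is common to the 3 printed windows of genes that were higher on Iso, and Col5a3, which was lower, holds the same kinds as Col1a2. Over the 38 windows of collagen genes, 34.2% held a CCAAT box, beside 33.8% of all 32851 promoter windows. TATA boxes were in 13.2% and 12.4%. GC boxes were in 57.9% of collagen windows and in 32.7% of all, and in 68.2% of the 22 windows of chains above background. The share over all genes above background was not computed, so the 68.2% has no like value beside it. A match is a description of the letters and not a mapped site.

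The basement membrane chains were not higher on Iso. Col4a1 (Entrez gene 12826), which with Col4a2 makes the type IV collagen found around nearly all cells, stood at 7.48 on Control, 7.21 on Iso and 7.34 on Iso+Insl6. It was 1.21-fold lower on Iso than on Control, and 4.74% of genes lay at least as far down. Col4a2 (Entrez gene 12827) stood at 7.18, 6.99 and 6.98, lower by 0.19 on Iso. On the Iso+Insl6 array Col4a1 lay between its other levels, higher than Iso by 0.13, whereas Col4a2 differed from Iso by -0.01. Col4a5, a chain of kidney and other basement membranes, stood at 5.80, 5.80 and 5.88. Col4a3 was listed at 4.20 on each array, while Col4a4 (3.76) and Col4a6 (3.26) were below background. The median of the 4 chains counted was -0.095 for Iso against Control and 0.04 for Iso+Insl6 against Iso.

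Col4a1 and Col4a2 lie head to head on chromosome 8. In the promoter table their start sites are 21 bases apart on opposite strands, at 11312826 for Col4a1 (minus) and 11312805 for Col4a2 (plus). With these starts the 5' ends of the genes overlap. The upstream bases of each gene therefore lie on the transcribed side of the other gene's start, not in a gap between the genes. The table's entries run past the start sites and overlap by 78 bases, but the upstream 250 bases of the genes do not overlap. Each gene has 1 CCAAT box in its own upstream 250 bases, shown here with its context because these chains differed in the same direction on Iso. The stretches are chr8:11312954-11312983 (minus strand) for Col4a1 and chr8:11312761-11312790 (plus) for Col4a2, with the box in capitals.
Col4a1: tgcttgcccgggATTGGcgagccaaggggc
Col4a2: ccgaggagctccCCAATttgttggcgctgc
The Col4a1 box lies on the opposite strand, 145 bases before the start, and the Col4a2 box on the same strand, 32 bases before it.

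Neighbouring genes were also compared elsewhere, since 15 of the 44 members fall into 8 pairs of adjacent protein-coding genes. Col3a1 and Col5a2 are such a pair, and both were higher on Iso than on Control, by 0.40 and 0.23. Col6a1 and Col6a2 differed by 0.00 and 0.01. In the other 5 pairs neither gene differed by more than 0.01 in that comparison, but each of these pairs holds a chain below background.

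Endothelial cells make much of the type IV collagen of the heart. Of 10 endothelial markers, all above background, 7 were lower on Iso than on Control, 2 higher and 1 equal, where 27.2% of all genes were lower and 19.9% higher. Only Kdr, the VEGF receptor, was called (9.51 on Control, 8.90 on Iso and 8.69 on Iso+Insl6), beside 1.06% of all genes. Of the other 6 that were lower, Cldn5 stood at 4.79, 4.41 and 4.41 and Eng at 9.04, 8.72 and 8.83. Cdh5, Egfl7, Tie1 and Tek differed by 0.08 or less. The mean level of the 10 markers was 8.136 on Control, 7.994 on Iso and 7.976 on Iso+Insl6. Pecam1 stood at 9.16 on all arrays. The part of endothelial RNA in the Col4a1 and Col4a2 values was not tested, and in bulk tissue fewer cells of a type and less RNA per cell cannot be told apart.

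Of the FACIT chains, Col14a1 (Entrez gene 12818) had the largest differences of any collagen chain from Control, on both isoproterenol arrays. This chain binds the surface of type I fibrils and is made by fibroblasts. It stood at 5.27 on Control, 5.87 on Iso and 5.94 on Iso+Insl6. Both isoproterenol arrays lay above Control and near each other. The fold over Control was 1.52 on Iso and 1.59 on Iso+Insl6, and the step between these arrays was 0.07. At least as far up lay 0.804% of genes above background on Iso and 1.63% on Iso+Insl6.

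Type IX collagen, best known from cartilage, gave the other pattern in this class. Col9a2 stood at 5.86 on Control, 5.96 on Iso and 5.65 on Iso+Insl6. Its difference from Iso to Iso+Insl6, -0.31, was the largest downward one of any chain above background in that comparison, and 2.37% of genes lay at least as far down. Col9a3 stood at 3.96, 4.12 and 3.76, in the same order but below background. Col9a1 stood at 3.19, 3.20 and 3.19, also below. Of 8 cartilage and valve markers only 2 were above background, Sox9 (4.79 on all arrays) and Cytl1 (6.86, 6.86 and 6.93), and Acan stood at 2.82 on each.

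Other FACIT chains gave little signal. Col16a1 reached background only on Iso (4.13, 4.17 and 4.12). Col20a1 was listed at 4.24 throughout. Col12a1 (2.94), the close relative of Col14a1, was below background on every array, as were Col19a1 (3.15) and Col22a1 (3.91). The median of the 4 FACIT chains counted was 0.07 for Iso against Control and -0.025 for Iso+Insl6 against Iso.

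**Figure D3:**
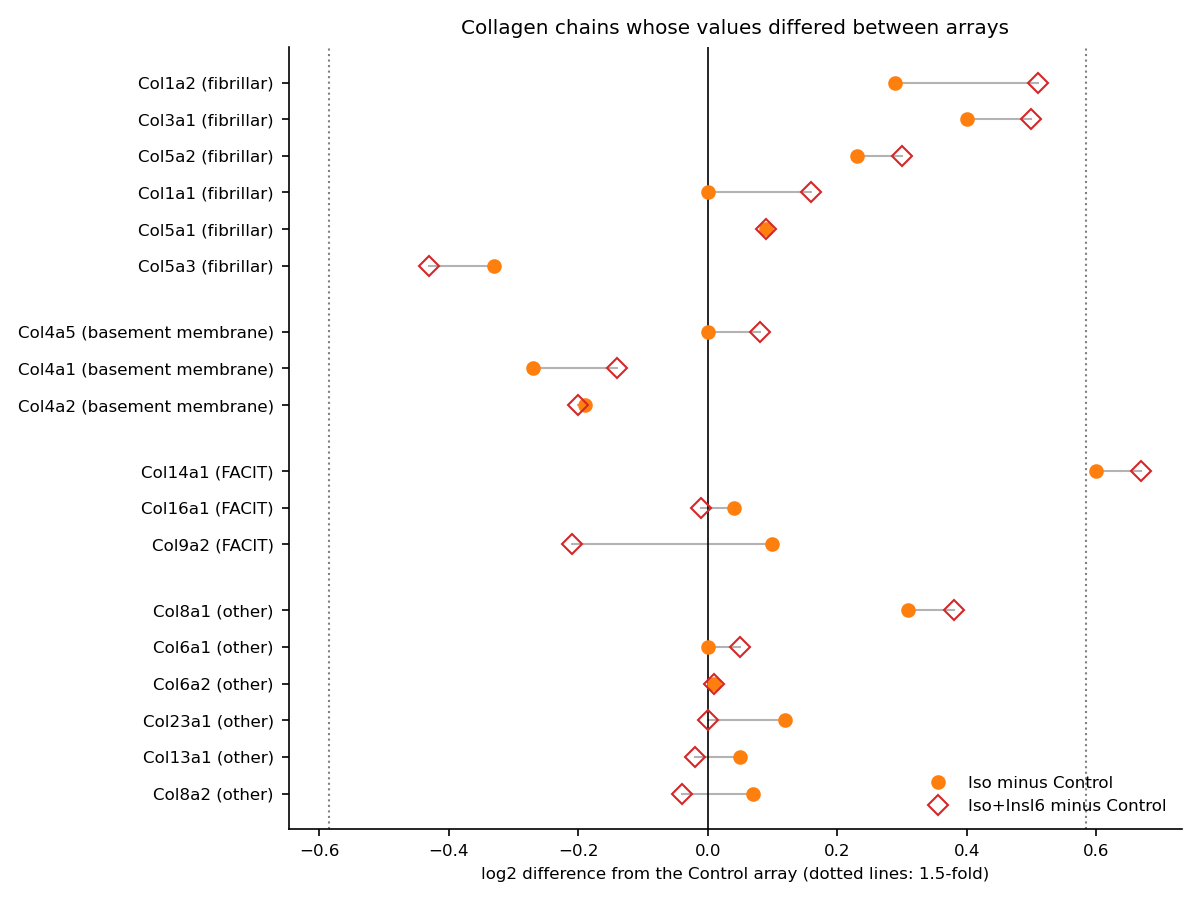
Log2 difference from Control (x axis) of the 18 chains above background that differed between arrays, with circles for Iso and diamonds for Iso+Insl6; dotted lines mark 1.5-fold and each symbol is 1 pooled array against 1. Both symbols lie to the right for Col14a1, Col3a1, Col1a2, Col8a1 and Col5a2, to the left for Col5a3, Col4a1 and Col4a2, and on opposite sides for Col9a2 (0.10 and -0.21).

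Among the other chains, Col8a1 (Entrez gene 12837) differed most from Control. It encodes a short chain that forms networks under endothelium and in remodelling vessel walls. Its levels were 5.99 on Control, 6.30 on Iso and 6.37 on Iso+Insl6, 1.24-fold higher on Iso than on Control. Its partner Col8a2 stood at 4.32, 4.39 and 4.28, near background. Col10a1, of the same structural class and typical of hypertrophic cartilage, lay at 2.73.

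Type VI collagen, the beaded filament that links muscle basement membrane to the interstitium, hardly differed. Col6a1 stood at 7.50, 7.50 and 7.55, and Col6a2 at 6.61, 6.62 and 6.62. Col6a3 was listed at 5.84 and Col6a6 at 5.12 on every array. Col6a5 (2.56 on all arrays) and Col6a4 (3.00, 3.00 and 2.90) were below background.

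The transmembrane chains Col13a1 (4.69, 4.74 and 4.67) and Col23a1 (4.34, 4.46 and 4.34) stood slightly higher on Iso than on either other array. The other transmembrane chains, Col17a1 (3.57) and Col25a1 (3.49), were below background. Col15a1, a multiplexin of muscle and capillary basement membranes, was listed at 5.97 throughout. Col18a1, the other multiplexin, was below background at 3.61, 3.70 and 3.70. Col7a1, which forms the anchoring fibrils of skin, stood at 4.41 on all arrays. Col26a1 (4.02) and Col28a1 (2.91) lay below background. Of the 18 chains outside the 3 main classes, 10 were above background, with 5 higher, 0 lower and 5 equal on Iso against Control and a median of 0.005.

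Fibroblasts are the main source of types I and III, and their markers were divided. Of 10 fibroblast markers, all above background, 5 were higher and 5 lower on Iso than on Control, where 19.9% and 27.2% of all genes were, with mean levels of 7.318 on Control, 7.332 on Iso and 7.278 on Iso+Insl6. Pdgfra, a defining receptor, stood at 7.39, 7.34 and 7.39, and Tcf21 at 5.72, 5.67 and 5.67. Pi16 was called higher on Iso than on Control (6.80, 7.41 and 7.13), beside 0.874% of all genes. Meox1 was called lower on Iso+Insl6 than on Control (5.86, 5.41 and 4.93), beside 0.78% of all genes. Among 8 myofibroblast markers, 7 reached background on any array, and the mean level of the list was 5.439, 5.556 and 5.589. Of these 7, 3 were higher, 1 lower and 3 equal on Iso against Control. Against Control, 5 were higher and 2 lower on Iso+Insl6, where 23.1% and 23.2% of all genes were. Postn, a matrix protein of activated fibroblasts, stood at 7.24, 7.66 and 7.93, in the same order as Col3a1 and Col1a2. Other markers of the list had other orders: Acta2 (9.25, 9.60 and 9.40), Cthrc1 (4.24, 4.24 and 3.96) and Lox (4.36, 4.08 and 4.08). Postn and Cilp (3.91, 4.36 and 4.53) were the 2 markers of that list called, both higher on Iso+Insl6 than on Control, where 1.95% of all genes were called. Whether the collagen differences follow the number of such cells was not tested.

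Genes that fold, trim, bind and degrade collagen were counted in the same way, where 19.9% of all genes were higher on Iso than on Control and 27.2% lower, with 0.874% and 1.06% called. Of 20 genes of procollagen folding and secretion, 18 were above background, of which 2 were higher, 8 lower and 8 equal on Iso against Control, and 0 were called in any comparison. Fkbp14, a prolyl isomerase of the endoplasmic reticulum, stood at 6.17, 5.87 and 6.00. The prolyl hydroxylase subunit P4ha1 stood at 7.14, 6.90 and 6.78. P4ha2, the alternative subunit, stood at 6.24, 6.03 and 6.22. The collagen chaperone Serpinh1 stood at 7.48, 7.32 and 7.25, so it was lowest on the array where Col3a1 and Col1a2 were highest. P3h2, of the same list, differed as much from Control on Iso but upward, at 6.04, 6.20 and 6.20.

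Of 13 genes of propeptide cleavage and crosslinking, 10 were above background in the first comparison, with 3 higher, 2 lower, 5 equal and 0 called. Loxl2, a crosslinking enzyme, stood at 4.92, 5.42 and 5.39, a 1.41-fold difference between Iso and Control. Pcolce2, an enhancer of procollagen cleavage, stood at 6.61, 7.07 and 6.98. Lox was near background at 4.36, 4.08 and 4.08. Loxl3 stood at 5.17, 5.17 and 5.32.

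Among 12 fibril-binding proteins, 10 were above background, with 6 higher, 0 lower and 4 equal on Iso against Control and none called in either comparison of the design. Lum, which binds collagen fibrils, stood at 6.96, 7.45 and 7.62, and was called only between Iso+Insl6 and Control, where 1.95% of all genes were called higher. Fibronectin, Fn1, stood at 7.12, 7.12 and 7.46. It was higher only on the Iso+Insl6 array, where the hepatocyte markers were higher too, and the part of that signal in its value was not tested. Aspn stood at 7.32, 7.64 and 7.45, and Bgn at 10.44, 10.71 and 10.77. For the 10 collagen receptors, 7 were above background and 0 were called, with Mrc2, an uptake receptor, at 5.31, 5.54 and 5.57.

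Of 8 collagen-cleaving proteases 4 were above background. Mmp14, a membrane-bound collagenase, was called lower on Iso (6.44 on Control, 5.70 on Iso and 6.10 on Iso+Insl6), a 1.67-fold difference and larger than that of any collagen chain in this comparison. Mmp2 stood at 7.60, 7.66 and 7.73. The collagenases Mmp8 and Mmp13 stood at 2.82 or less on each array, below background.

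**Figure D4:**
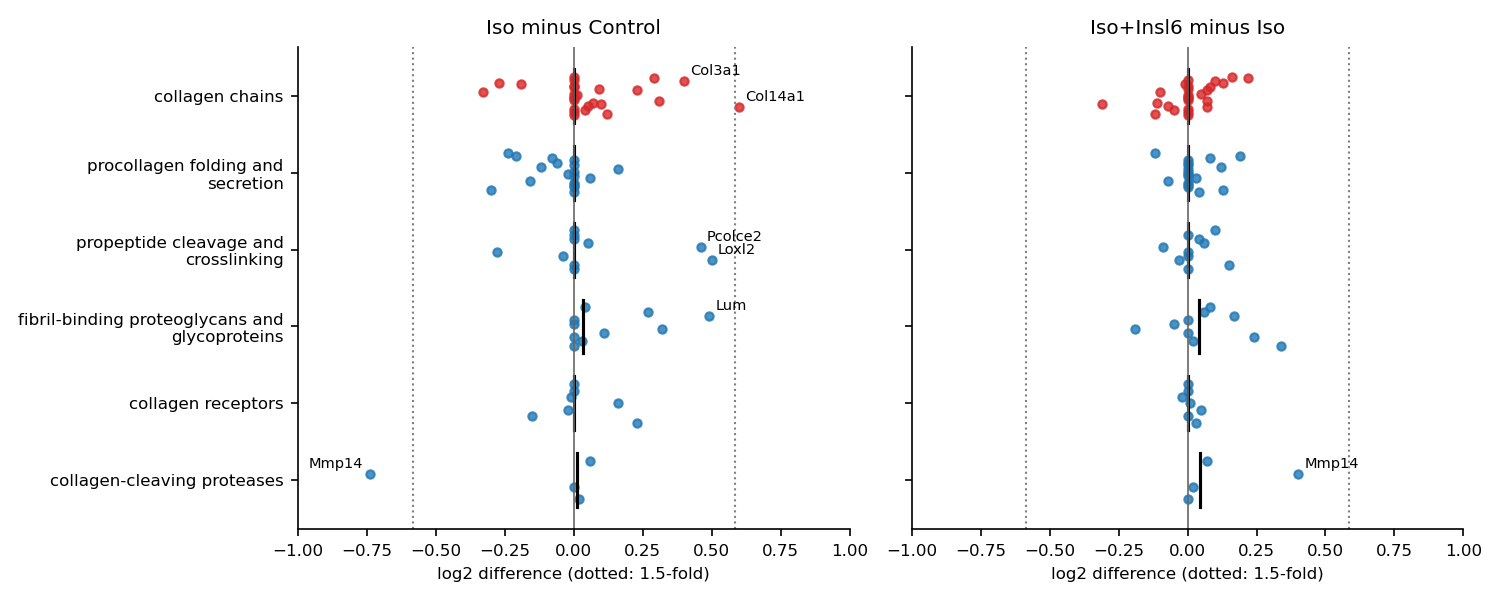
Log2 difference (x axis) of single genes for collagen chains (red) and 5 lists of collagen-related genes (blue) at or above background on any array, with black bars for list medians and dotted lines at 1.5-fold; genes at 0.4 or beyond are named. For Iso against Control, Col14a1 lies past 1.5-fold on the right and Mmp14 on the left, and for Iso+Insl6 against Iso no gene shown does.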

How the data were processed

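Gene expression was measured in left ventricle on 3 arrays, 1 per group, each from 3 pooled RNA samples. The values deposited by the authors are log2 levels, 1 for each probe set. The submitters' processing notes name RMA and affy 1.36.1. Settings, array type and genome build are not given in the sources used here. RMA as published fits medians over the probes of a set, so arrays can receive equal values. Columns were matched to samples by accession, with 0 columns unmatched. Probe sets carry Entrez gene numbers, and RefSeq's mouse table (assembly GRCm38.p6) gave symbols to 23740 of 25206. For all 44 collagen chains the platform annotation gave the same symbol.

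Differences were taken on the log2 scale and called at 1.5-fold among genes reaching 4.16 on the higher array. With 1 array per group there is no test, and the number of arrays limits the precision. Every member is named. From the pathway lists, genes at 1.5-fold and up to 4 with the largest differences above background are named, with any gene tied with the last of them. Mmp8, Mmp13 and the cell type markers named were chosen with values seen. Members and lists were chosen with earlier results of these data known. Nerve and Schwann (2 of 6 above background), smooth muscle and pericyte (10 of 10) and macrophage markers (9 of 9) had 0 called genes in these comparisons. The planned protein sequence features were not computed. Counting was tested on simulated data. Alternatives used Python 3.11.15, R 4.3.3 and limma 3.58.1.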

Additional observations from a re-analysis of the deposited data

How the results depend on the processing

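No paired analysis was possible because each group has 1 array and no test was run. The 8 alternatives were 2 other thresholds, 3 other filters on level (no filter, the 95th percentile of 1408 olfactory, vomeronasal and keratin-associated genes at 3.71, and 5.16) and 3 scalings. Counts of called chains changed with the threshold only. At 2-fold the higher counts were 0 for Iso against Control and 0 for Iso+Insl6 against Control. At the lower threshold, 0.32 on the log2 scale, they were 2 and 4, and the lower counts were 1 and 1. Under the other filters and scalings Col14a1 was the chain called in both. Medians of the chains moved by at most 0.05. The arrays already had the same median before the 3 scalings. Under cyclic loess, quantile normalization and centring on genes above background, the chains shifted by at most 0.04. With such shifts no difference of at least 0.1 could change direction. For Iso against Control, Iso+Insl6 against Iso and Iso+Insl6 against Control, 10, 8 and 10 chains had a difference of at least 0.1. With 1 pooled array per group, differences of this size cannot be set against the spread between animals.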
